A study of Mus musculus with 117 samples.

Results

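The 10 genes described here are markers of endothelial cells, the cells that line blood and lymph vessels: Cldn5, Pecam1, Cdh5, Kdr, Stab2, Tek, Tie1, Vwf, Eng and Lyve1. They were chosen by name from known vessel markers after their chromatin states had been seen in an earlier pass over these data, and they are 10 of the 21631 genes that code for protein on the autosomes and X. Because the choice rested on the readout, their states are given as a description, with no test. The study carried out chromatin immunoprecipitation sequencing (ChIP-seq) of H3K4me1, H3K4me3, H3K27ac and H3K27me3 on cells labelled as liver hepatocytes from female mice 12 weeks old, with no treatment named in the labels. Its 9 groups are inbred strains: 3 that descend from wild-caught mice (CAST/EiJ, PWK/PhJ and WSB/EiJ) and the classical laboratory strains C57BL/6J, A/J, DBA/2J, 129S1/SvImJ, NZO/HlLtJ and NOD/ShiLtJ. There are 3 mice per mark in each strain and 1 input library without an antibody. The labels tie the 13 libraries of a strain to 1 segmentation, so there is 1 value per strain, and no spread between mice can be given. In a segmentation each 200-bp bin of the genome carries 1 of 14 state numbers, and the mark content of a state is not given in the sources used here.

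Endothelial cells hold together through junction proteins, take up growth signals through receptor tyrosine kinases of the VEGF and angiopoietin pathways, and pass signals of the TGF-beta family through endoglin. The liver sinusoid is lined by a special endothelium with open pores, which clears hyaluronan and other waste through scavenger receptors such as stabilins. These genes are known as genes of endothelium and not of hepatocytes, and a sample of hepatocytes taken from liver tissue can hold some sinusoidal cells. The number of endothelial cells in a preparation and the amount of a mark per cell cannot be told apart here.

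State numbers were read against genes of known use. Near the starts (within 1 kb) of 22 hepatocyte genes, such as Apoa1, state 1 held 46.6% ± 1.87 of bins and state 3 held 42.2% ± 2.46 (SD, n = 9 strains). Near the starts of 20 genes of other tissues, states 1 and 3 held 0.993% ± 0.269 and 1.45% ± 0.286. State 13 held 43.2% ± 6.81 there and state 14 held 40.9% ± 6.65. Over the whole spans of the hepatocyte genes, states 1, 2 and 3 held 35.7% ± 3.39, 26.3% ± 4.86 and 9.70% ± 1.10 of bins and state 6 held 10.9% ± 3.56; state 2 was rare near their starts (2.51% ± 1.14). States 1 to 3 are counted together below, a grouping that leaves out states 4 and 6. State 4 held 7.34% ± 1.11 of the span bins of hepatocyte genes and 2.88% ± 1.46 of those of genes of other tissues. Over the genome it held 2.55% ± 0.523 of bins. States 13 and 14 are given separately. Over the whole spans of the genes of other tissues, state 13 held 15.1% ± 2.94 and state 14 held 75.3% ± 3.66. State 14 was also the commonest over the genome, with 72.3% ± 1.26 of all bins. The span of a gene is its annotated extent with 2 kb added on each side.

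The sequences upstream of 3 of the genes are shown because these starts behaved differently across strains: the Cldn5 start changed state from strain to strain, the Tie1 start stayed in states 1 to 4 in all 9 strains, and the Eng start carried state 3 in 8 strains. Each is the 250 bases before the start in the RefSeq promoter table (GRCm38.p6), 5′ to 3′ on the strand of the gene, and capitals mark CG dinucleotides. Cldn5 lies at chr16:18776597-18776846 on the plus strand, Tie1 at chr4:118489850-118490099 on the minus strand and Eng at chr2:32646345-32646594 on the plus strand.
Cldn5: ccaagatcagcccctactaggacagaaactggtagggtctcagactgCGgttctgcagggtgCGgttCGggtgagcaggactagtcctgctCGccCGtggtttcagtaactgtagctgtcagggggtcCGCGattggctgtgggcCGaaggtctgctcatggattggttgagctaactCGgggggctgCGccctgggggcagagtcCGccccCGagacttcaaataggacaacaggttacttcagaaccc
Tie1: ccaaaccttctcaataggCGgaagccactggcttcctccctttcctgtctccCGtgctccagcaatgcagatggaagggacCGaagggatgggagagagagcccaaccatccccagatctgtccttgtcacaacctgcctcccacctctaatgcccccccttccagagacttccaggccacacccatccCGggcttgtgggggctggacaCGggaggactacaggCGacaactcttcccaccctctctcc
Eng: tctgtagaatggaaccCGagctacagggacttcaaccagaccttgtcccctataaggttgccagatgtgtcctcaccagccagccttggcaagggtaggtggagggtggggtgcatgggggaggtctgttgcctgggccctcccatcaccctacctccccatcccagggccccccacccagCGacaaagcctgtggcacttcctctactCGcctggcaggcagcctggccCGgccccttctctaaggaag
The Cldn5 stretch held 12 CG dinucleotides, the Tie1 stretch 6 and the Eng stretch 4, against a median of 6 over 32619 promoters of the table. Scaled for base content, the observed over expected CG ratio was 0.549 for Cldn5, 0.280 for Tie1 and 0.166 for Eng, and the median of all promoters was 0.378. Of the 3 other genes with an entry, Kdr had the highest ratio, 0.676 with 16 CG dinucleotides. Stab2 had a ratio of 0.172 and Tek 0.126. The 2 genes above the median, Cldn5 and Kdr, were also those with states 5 and 12 around their starts in some or all strains, described below. The other 4 lay below it. Whether these states go with the ratio over all genes was not tested. Over all genes with a start, state 3 lay near the start in all 9 strains for 62.3% of 10612 genes at or above the median ratio and for 7.84% of 6662 genes below it. None of the 6 genes had state 3 near the start in all 9 strains, whether above or below the median ratio. Counted instead by number of strains, state 3 lay near the start in 8 strains at Eng, 4 at Stab2 and Tie1, 1 at Tek and Cldn5 and 0 at Kdr. Pecam1, Cdh5, Vwf and Lyve1 had no entry.

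A search of these stretches on both strands for the letters CCGGAA, the core that ETS factors bind, found 1 match at Kdr and none at the other 5, against 12.1% of all promoters with a match. A looser ETS-type run, AGGAAG, was found in Stab2 (1 match), Tie1 (1 match) and Eng (2 matches), against 29.6% of all promoters. The run AGATAA, present in 10.02% of all promoters, the run ACAATG, bound by SOX factors and present in 10.4%, and the run TATAAA of the core promoter, present in 12.4%, had no match in the 6 stretches. These counts describe letters in a window and are no measure of binding.

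**Figure D1:**
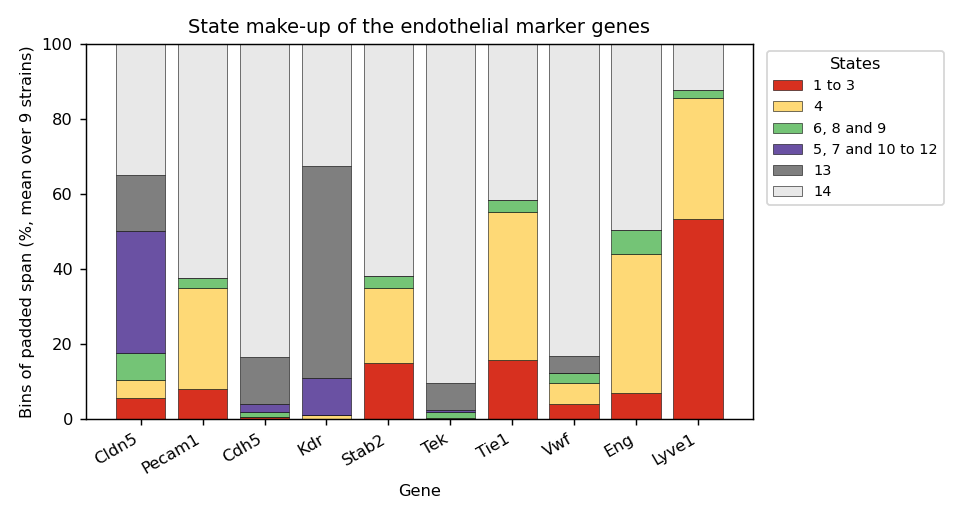
Mean share over the 9 strains of the 200-bp bins of each gene's span (with 2 kb on each side) in 6 groups of states, as stacked bars that sum to 100%. Lyve1 stands out by states 1 to 3 (53.3%), Tie1 and Eng by state 4 (39.4% and 37.2%), Kdr by state 13 (56.7%) and Cldn5 by states 5, 7 and 10 to 12.

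The genes fell far apart in their make-up of states. States 1 to 3 were present in all 9 strains in the spans of 6 genes, Pecam1, Stab2, Tie1, Vwf, Eng and Lyve1, a share close to the 56.9% of all protein-coding genes. State 13 was present in all 9 strains in 3 spans, those of Kdr, Tek and Vwf, against 24.5% of all genes. Ranked by the mean share of span bins in states 1 to 3, Lyve1 was first with 53.3% ± 4.18 (SD, n = 9 strains), and its lowest strain lay above the highest strain of all other members. Tie1 (15.7% ± 3.59) and Stab2 (14.8% ± 3.69) followed, then Pecam1 (8.08% ± 1.73), Eng (6.77% ± 4.08) and Cldn5 (5.56% ± 13.1). The strain ranges of all of these overlapped. Compared within each strain, Tie1 and Stab2 lay above Pecam1 in all 9, most narrowly in PWK/PhJ (7.83% and 6.78% against 6.13%). The order of the other pairs among them changed between strains. Cldn5, with a median of 0%, also overlapped with Cdh5, Tek and Kdr. Vwf (3.86% ± 0.735) overlapped with Eng and Cldn5. Cdh5 and Tek had such bins in PWK/PhJ alone, and Kdr had none. The median of the 10 genes was 6.16%, beside 5.14% over all protein-coding genes and 86.0% over the 22 hepatocyte genes.

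Near the gene start, state 3 was rarely a fixed feature of these genes. None of the 10 had a state 3 bin within 1 kb of the start in all 9 strains, where 40.3% of all genes did. In contrast, 8 of 10 had one in some but not all strains, where 12% of all genes did; Kdr and Vwf had none in any strain. For the 4 genes without a start entry both gene ends were searched, which widens the window. Without PWK/PhJ, 5 of 10 varied (Pecam1, Stab2, Tie1, Eng and Lyve1), against 11.2% of all genes.

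**Figure D2:**
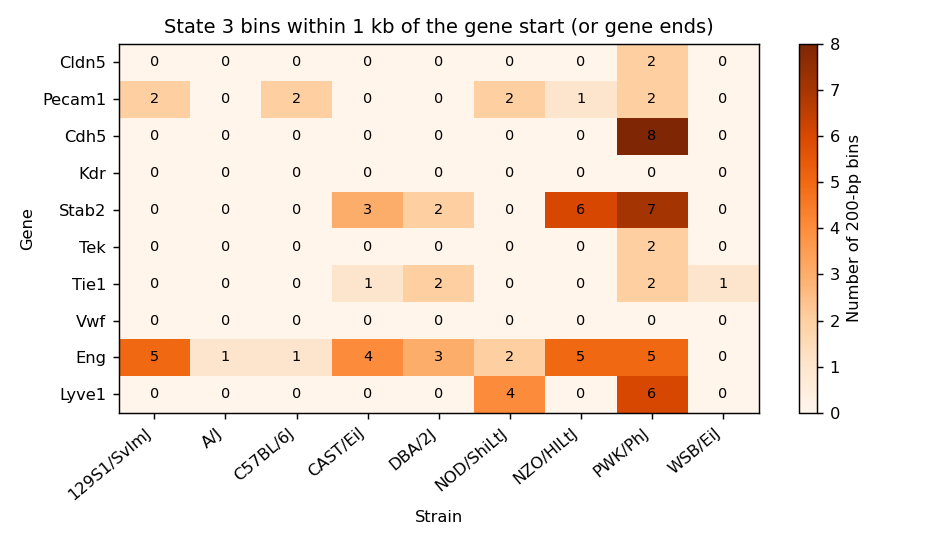
Number of 200-bp bins in state 3 within 1 kb of the gene start (both gene ends for Pecam1, Cdh5, Vwf and Lyve1), for each gene (rows) and strain (columns). The PWK/PhJ column holds a state 3 bin in 8 of 10 genes, and the other columns in 1 to 3.

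PWK/PhJ had a state 3 bin near the start of 8 of the 10 genes, and the other 8 strains had one at 1 (A/J, WSB/EiJ), 2 (129S1/SvImJ, C57BL/6J) or 3 genes (NZO/HlLtJ, NOD/ShiLtJ, DBA/2J, CAST/EiJ). Counted in bins, PWK/PhJ had 34 state 3 bins among the 154 bins searched, and the other strains 1 to 12. At Cldn5, Cdh5 and Tek, state 3 lay near the start in PWK/PhJ and in no other strain, a pattern seen at 127 genes or 0.587% of all. That was also the highest count of such genes of the 9 strains; each of the others had state 3 alone at 27 (A/J) to 105 (DBA/2J) genes. In the total number of genes with state 3 near the start, PWK/PhJ lay within the range of the strains, with 10015 genes against 9659 to 10223. Across the genome, state 3 covered 0.349% of bins in PWK/PhJ, the second lowest of the 9 strains, and state 9 covered 0.255%, the lowest, against 0.514% to 1.49% in the others. In the spans of the 10 genes, 58 bins were in state 3 in PWK/PhJ. The other 8 strains had state 3 in 11.6% of these bins, state 9 in 26.3%, state 4 in 19.4% and state 14 in 18.3%. These pooled shares cover unlike genes. State 9 held 47.7% at Stab2, 43.75% at Pecam1 and Tek and 40% at Eng. It held 17.2% at Cdh5, 10.4% at Cldn5, 2.08% at Lyve1 and 0% at Tie1. At Cldn5 the commonest was state 13 (31.25%), at Cdh5 state 11 (29.7%) and at Lyve1 state 4 (61.5%). For the 45979 bins in state 3 in PWK/PhJ over the genome, the other strains had state 3 in 78.7% and state 9 in 3.47%. The low share of state 9 and the state 3 bins at these genes stood in the same PWK/PhJ segmentation, and the part of the first in the second was not tested.

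Junction and adhesion genes are described first. Cldn5 encodes claudin-5, the tight junction protein that seals endothelial cells to each other. Its span (start at chr16:18776847, plus strand) is short, 28 bins, and the state of the bin that holds the start was 3 in PWK/PhJ, 5 in NZO/HlLtJ, 9 in CAST/EiJ, 11 in C57BL/6J and DBA/2J, 12 in 129S1/SvImJ and WSB/EiJ, and 13 in A/J and NOD/ShiLtJ. Just after the start, PWK/PhJ had 1000 bp of state 1 (chr16:18777001-18778000) followed by 800 bp of state 3, and CAST/EiJ had 600 bp of state 1 (chr16:18777001-18777600) followed by 600 bp of state 5. 129S1/SvImJ, NZO/HlLtJ and WSB/EiJ each had 1400 bp of state 5 there, and C57BL/6J had 1200 bp. DBA/2J had state 12 there, NOD/ShiLtJ state 10 and A/J both. The gene thus had the states of hepatocyte gene starts in 1 strain, in part in a second, and another set of states in 7.

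**Figure D3:**
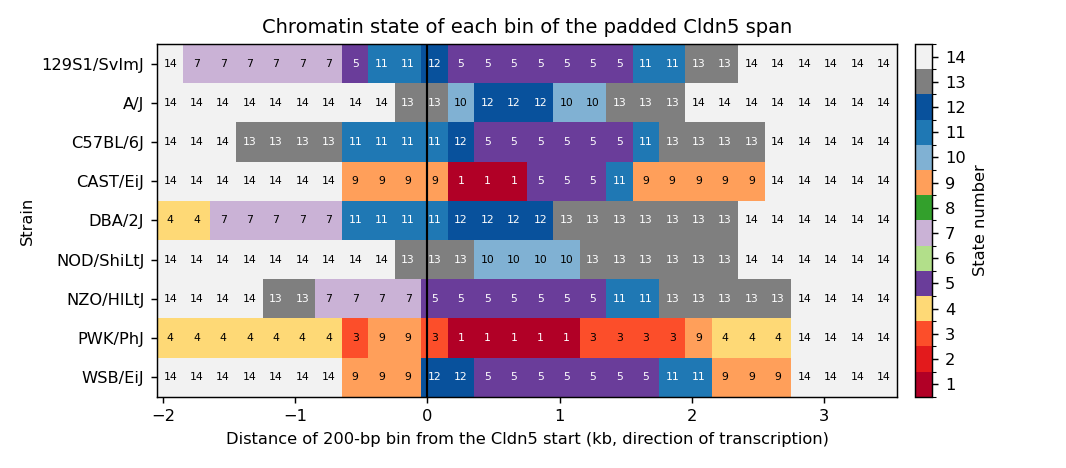
State of each 200-bp bin of the Cldn5 span in each strain (rows), by distance in kb from the gene start (vertical line) in the direction of transcription; numbers and colours give the state. State 1 appears in CAST/EiJ and PWK/PhJ, state 3 in PWK/PhJ, and states 5, 7 and 10 to 12 around the start in the other 7 strains. CAST/EiJ also has states 5, 9 and 11, with state 9 in 32.1% of its bins. State 9 also appears in PWK/PhJ and WSB/EiJ.

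States 1 to 3 covered 39.3% of the Cldn5 span in PWK/PhJ, 10.7% in CAST/EiJ and none of it in the other 7 strains. State 13 was listed in none of its bins in CAST/EiJ, PWK/PhJ and WSB/EiJ, in 7.14% in 129S1/SvImJ and in 17.9% to 32.1% in A/J, C57BL/6J, DBA/2J, NOD/ShiLtJ and NZO/HlLtJ. Without PWK/PhJ the mean share of states 1 to 3 fell from 5.56% to 1.34%. Strain divergence is the share of bins whose state differs between a pair of strains, averaged over the 36 pairs. It was 62.6% for Cldn5, rank 48 of 21631 genes, beside a median of 19.7% over all genes; Cldn5 was chosen for this value. Without PWK/PhJ it was 57.3%. The closest pair was A/J and NOD/ShiLtJ, which differed in 25.0% of bins, and the farthest was 129S1/SvImJ and PWK/PhJ with 85.7%. The value fell to 35.5% when 5 kb were added on each side of the gene in place of 2 kb, since the added bins were more alike between strains. Its neighbour Cdc45, a DNA replication factor whose annotated extent (without the added 2 kb) holds none of these 28 bins, had state 3 near its start in all 9 strains, and a divergence of 21.96%.

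Cdh5 encodes VE-cadherin, the adhesion molecule of endothelial adherens junctions. It had states 1 to 3 in PWK/PhJ, in 3.40% of 235 bins, and in no other strain. All 8 of these bins were state 3, at the lower-coordinate end of the gene (chr8:104101201-104102800). The same end was in state 13 in all 11 bins in A/J, mostly in state 14 in NOD/ShiLtJ, and in a mix of states 5, 7, 9, 11, 13 and 14 in the other 6 strains. State 13 covered 0% of the Cdh5 span in PWK/PhJ, 2.98% in CAST/EiJ and 9.79% to 21.7% in the other 7. For Cldn5 and Cdh5 alike, PWK/PhJ and CAST/EiJ were thus among the strains with the least state 13, whereas CAST/EiJ had the most at Kdr and Tek.

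Pecam1 encodes the adhesion molecule CD31 of endothelial cells, platelets and leukocytes. The share of states 1 to 3 in its 326 bins was lowest in CAST/EiJ (5.52%), 7.98% at the median and highest in 129S1/SvImJ (11.04%), and state 13 was absent in all 9 strains. These bins lay mainly inside the gene. A stretch of 2000 bp (chr11:106667601-106669600) and one of 1200 bp (chr11:106674401-106675600) were in states 1 to 3 in at least 5 strains at each bin, and at some bin in all 9. At the upper-coordinate end state 3 was present in 1 or 2 bins in 129S1/SvImJ, C57BL/6J, NOD/ShiLtJ, NZO/HlLtJ and PWK/PhJ, and in none in A/J, CAST/EiJ, DBA/2J and WSB/EiJ. A/J had state 14 in all 11 bins of that end. Divergence was 17.0%, below the median of all genes.

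Among the receptors of growth signals, Kdr, the main signalling receptor for VEGF-A, had no bin of states 1 to 3 in any strain. Its state at the start bin was 12 in 7 strains, 10 in NOD/ShiLtJ and 5 in PWK/PhJ. States 5, 7 and 10 to 12 formed 1 block of 4000 bp around the start (chr5:75975201-75979200) in at least 5 strains, with blocks of state 13 on either side, 18000 bp long into the gene (chr5:75957201-75975200) and 2000 bp long upstream (chr5:75979201-75981200). State 13 covered 31.7% of its 252 bins in PWK/PhJ and 56.3% (WSB/EiJ) to 70.6% (CAST/EiJ) in the other 8. PWK/PhJ had 3800 bp of state 5 in 1 segment there (chr5:75975001-75978800), beside 200 to 1000 bp in the 6 other strains with state 5. PWK/PhJ was thus the lowest strain in state 13 and the strain with the longest run of state 5. Divergence was 21.9%, and 15.2% without PWK/PhJ.

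Tek encodes the angiopoietin receptor TIE2. It had states 1 to 3 in 2 of 700 bins (0.286%), both state 3 in PWK/PhJ, at chr4:94739601-94740000 just after the start. At the start, WSB/EiJ had 6 bins of state 9, C57BL/6J, DBA/2J and PWK/PhJ had 4 each, NZO/HlLtJ had 3 and 129S1/SvImJ had 2, and A/J, CAST/EiJ and NOD/ShiLtJ had none. The same 3 strains had the most state 13 over the span, 15% in A/J, 20.4% in CAST/EiJ and 14.6% in NOD/ShiLtJ, against 1.14% to 3.57% in the other 6. State 9 at the start and state 13 over the gene thus split the strains in the same way. Divergence was 11.8%, the lowest of the 10. The span holds 7 bins of the annotated extent of its neighbour Eqtn, a sperm gene with no bin of states 1 to 3.

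Tie1 encodes the partner receptor of TEK. At its start (chr4:118489849, minus strand) all 11 bins were in states 1 to 4 in all 9 strains. State 1 filled 6 (A/J, PWK/PhJ) to 11 of them (NOD/ShiLtJ, NZO/HlLtJ). A block of 2400 bp there (chr4:118488801-118491200) was in states 1 to 3 in most strains, and a second of 1200 bp (chr4:118476801-118478000) lay 12.4 kb into the gene. The share of states 1 to 3 over its 115 bins was lowest in PWK/PhJ (7.83%), 16.5% at the median and highest in DBA/2J (20%). State 4 ranged more widely, from 5.22% in PWK/PhJ to 64.3% in DBA/2J, and divergence was 39.1%. PWK/PhJ was thus the lowest strain over the Tie1 span, with state 14 in 82.6% of it.

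Eng encodes endoglin, a co-receptor for ligands of the TGF-beta family. State 3 was present near its start (chr2:32646595, plus strand) in 8 strains and absent in WSB/EiJ, which had 5 bins of state 9 there. The longest state 3 segment was 3000 bp in PWK/PhJ (chr2:32646601-32649600), 200 bp in A/J and C57BL/6J, and 400 to 1400 bp in the other 5. The share of states 1 to 3 over its 202 bins was 0.990% in NOD/ShiLtJ, 6.44% at the median and 13.9% in PWK/PhJ, and state 4 covered 37.2% ± 7.57. The upper-coordinate end of the span holds 11 bins of the annotated extent of Fpgs, a folate enzyme gene with 66.8% ± 3.51 of its bins in states 1 to 3.

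Stab2 and Lyve1 encode hyaluronan receptors of sinusoidal and lymphatic endothelium. For Stab2, states 1 to 3 covered 6.78% of 856 bins in PWK/PhJ, 15.8% at the median and 19.2% in CAST/EiJ, and PWK/PhJ had state 14 in 86.8% of the span, the most of the 9. The gene held 11 blocks of states 1 to 3, each shared bin by bin by at least 5 strains and 1000 to 5200 bp long; the longest (chr10:86878001-86883200) lay 127 kb into the gene. Its start was less alike between strains than these inner blocks. State 3 lay there in CAST/EiJ, DBA/2J, NZO/HlLtJ and PWK/PhJ, with 7 bins in PWK/PhJ and 2 to 6 in the others, state 9 filled 7 or 8 bins in 129S1/SvImJ, C57BL/6J and WSB/EiJ, and all 11 bins were in state 14 in A/J and NOD/ShiLtJ. The annotated extent of Nt5dc3, its neighbour, holds no bin of the Stab2 span, and Nt5dc3 had state 3 near its start in all 9 strains.

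Lyve1 had the highest share of states 1 to 3 of the 10 genes, rank 1648 of 21631. Among its 82 bins it was lowest in A/J (48.8%), 52.4% at the median and highest in PWK/PhJ (63.4%), and without PWK/PhJ the mean fell from 53.3% to 52.0%. These bins lay in the lower-coordinate part: 8 to 11 of the 11 bins at that end were in states 1 to 3 in all 9 strains, and a block of 6400 bp (chr7:110850401-110856800) followed. At the upper-coordinate end, state 3 held 6 bins in PWK/PhJ and 4 in NOD/ShiLtJ and none in the other 7, which had states 4, 9 and 14. State 13 was absent from Lyve1, Pecam1, Tie1 and Eng in all 9 strains.

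Vwf encodes von Willebrand factor, the glycoprotein that tethers platelets and is stored in endothelial cells of larger vessels. It varied little between strains: states 1 to 3 covered 2.32% (CAST/EiJ) to 4.78% (NOD/ShiLtJ) of 690 bins, with a median of 3.91%. No bin at either gene end was in states 1 to 3 in any strain. Those bins formed 4 blocks inside the gene, of which the longest was 2400 bp (chr6:125590201-125592600). State 13 covered 15.5% of the span in WSB/EiJ and 0.725% to 7.39% in the others, and filled all 11 bins of the upper-coordinate end in WSB/EiJ. Ano2, a channel gene next to it whose annotated extent holds no bin of the Vwf span, had 32.5% of its own span bins in state 13.

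**Figure D4:**
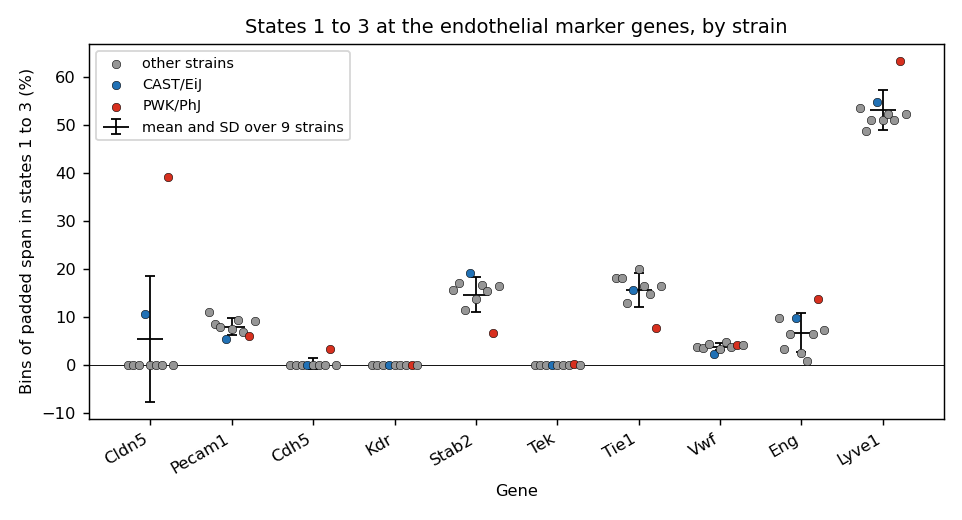
Share of each gene's span bins in states 1 to 3 in each strain (points; PWK/PhJ red, CAST/EiJ blue, other strains grey), with the mean and SD over the 9 strains as black bars. PWK/PhJ is the highest strain for Cldn5 (39.3%), Cdh5, Tek, Eng (13.9%) and Lyve1 (63.4%) and the lowest for Stab2 (6.78%) and Tie1 (7.83%).

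Over the 10 genes, the mean share of states 1 to 3 was 14.5% in PWK/PhJ and 9.46% (C57BL/6J) to 11.8% (CAST/EiJ) in the others. The high mean in PWK/PhJ rested on Cldn5: over the other 9 genes it was 11.8%, within the range of 10.5% (C57BL/6J) to 12.5% (129S1/SvImJ). The median over the 10 genes was 6.46% in PWK/PhJ, below CAST/EiJ (7.71%) and 129S1/SvImJ (6.83%). Divergence had a median of 25.8% over the 10 genes and 19.7% over all genes, with Cldn5 (62.6%), Tie1 (39.1%), Lyve1 (34.7%), Eng (32.5%), Stab2 (29.7%) and Kdr (21.9%) above the latter and Pecam1 (17.0%), Cdh5 (16.9%), Vwf (15.2%) and Tek (11.8%) below it. The gene lists described below had medians from 19.2% (genes of other tissues) to 29.5% (bile duct genes), with 26.6% for other endothelial and 26.9% for hepatocyte genes. The median of the 10 markers was thus not particular to them.

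Genes of related lists show how far these patterns reach. Among 24 other endothelial genes, which include the vessel transcription factors Erg, Sox17 and Tal1, the median share of states 1 to 3 was 3.07% and that of state 13 was 24.3%, beside 2.28% for state 13 over the 10 markers. Ushbp1 had the most (60.8% in states 1 to 3), Sox17 had none, and Clec14a, a cell surface lectin-like protein, was among the nearest to the median with 3.79%. State 13 was present in all 9 strains in 15 of the 24. State 3 near the start in all 9 strains was found at 2 of 24 and in some strains at 9 of 24. PWK/PhJ again had the most genes with state 3 near the start, 11 of 24 (45.8%), close to its 46.3% of all genes. The other strains had 2 (A/J, 8.33%) to 8 (DBA/2J, 33.3%), below their 44.7% to 47.3% of all genes. Emcn, the sialomucin endomucin, was the 1 gene of the list with state 3 near the start in PWK/PhJ and no other strain, with 5 bins; it is named after its values were seen.

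Among 14 genes known for liver sinusoidal endothelium, the median share of states 1 to 3 was 11.5%. Gpr182, a receptor of sinusoidal endothelium, was highest with 81.0%, Bmp2 had none, and Stab1, the second stabilin, was among the nearest to the median with 6.18%. The Gpr182 span is short, 31 bins, and neighbours were looked up for the 10 markers only, not for genes of the lists. State 3 lay near the start in all 9 strains at 4 of 14 and in some at 4. PWK/PhJ did not stand apart here, with 8 of 14 genes, as in 129S1/SvImJ, C57BL/6J, CAST/EiJ and NZO/HlLtJ; A/J and NOD/ShiLtJ were lowest with 4. These 2 strains were also the ones with state 14 throughout the Stab2 start.

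Among 14 ligands and partners of the receptors, the median share of states 1 to 3 was 7.59%. Vegfa, the ligand of Kdr and a gene that hepatocytes themselves use, had 91.3% and Gdf2, the ligand BMP9 of endoglin, had none, with Tgfbr2, a TGF-beta receptor, at 11.3%. State 3 was near the start in all 9 strains at 5 of 14. Among 17 other claudins the median was 4.81%, from 0% in Cldn7 to 100% in Cldn3 and Cldn23 at the median. State 3 near the start varied between strains at 1 of these 17, which was Cldn23.

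**Figure D5:**
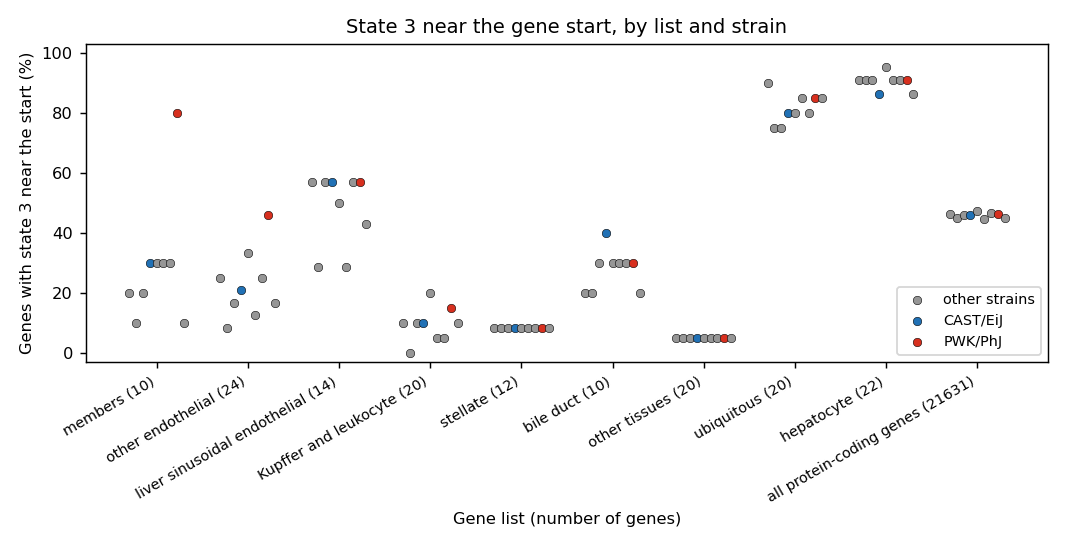
Share of the genes of each list with a state 3 bin within 1 kb of the start, 1 point per strain (PWK/PhJ red, CAST/EiJ blue, other strains grey), with the number of genes in brackets; members are the 10 endothelial marker genes. PWK/PhJ is highest for the 10 markers (80%) and for other endothelial genes (45.8%), beside 46.3% of all genes in that strain. It is within the range of the other strains for the other lists shown.

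Markers of other cells that a liver preparation can hold were set beside these values. Of 20 Kupffer cell and leukocyte genes, 0 (A/J) to 4 (DBA/2J) had state 3 near the start, with 3 in PWK/PhJ. One of these, Ptprc, the leukocyte antigen CD45, had it in PWK/PhJ and no other strain, and Csf1r and Laptm5 had it in DBA/2J alone; these 3 are named after their values were seen. Their median share of states 1 to 3 was 0%, with Clec4f, a defining Kupffer cell lectin, at 0% in all 9 strains and Cd68 highest at 64.8%. Of 12 stellate cell genes, 1 had state 3 near the start in each strain, and the median was 0%, with Lrat, a defining marker, at 0% and Lhx2 highest at 1.80%. Of 10 bile duct genes, 2 to 4 had state 3 near the start, with a median of 0.115% and Krt19 at 0%. Hepatocyte genes carried state 3 near the start at 19 to 21 of 22 in the strains, with 20 in PWK/PhJ, from 37.1% of bins in states 1 to 3 at Apoh to 100% at Apoa1. Of 20 genes of other tissues, 1 had state 3 near the start in each strain, and Sftpc was highest with 32.4%. Of 20 ubiquitous genes, 15 to 18 had it, with a median of 48.4% and B2m highest at 95.1%. States 1 to 3 were present in all 9 strains at 21 of the 22 hepatocyte genes; the exception, Cyp2e1, had 0% in CAST/EiJ and 23.7% to 67.1% in the others, and is named after its values were seen. The grouping of states was read from these same genes, so they are no independent check of the cell type label. How many endothelial cells each preparation held was not tested.

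Genes whose share of states 1 to 3 followed that of a member over the 9 strains were sought among 6309 or 6310 protein-coding genes that varied by at least 10 percentage points. Nearest to Cldn5 were Gm36182 (Pearson r = 0.995), Krt20 (0.992), Rad21l (0.981), Cyp7b1 (0.978) and Serpinb6d (0.977), over 9 strains. All 5 were highest in PWK/PhJ, so these values turn on that segmentation. The nearest gene to Stab2 was Madd (r = 0.945), to Tie1 Cptp (0.950), to Eng Fzd4 (0.961) and to Lyve1 Tfcp2l1 (0.983). Each point is 1 strain's segmentation, shared by both genes, and the highest of so many r values over 9 points is a ranking and no evidence of a link.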

How the data were processed

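The deposited files hold 1 segmentation per strain, named for its strain per the file headers. Column 4 is a category: each interval carries a state from 1 to 14, which is no count or signal, and the authors' score column is 0 in every row. The aligner and segmentation tool are not given in the sources used here, and the depth is unknown. The submitters' processing notes name the build mm10 and the tools FastQC 0.11.5 and MACS 1.4.2, with no role.

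Each file was written as 200-bp bins (Python 3.11.15, numpy 2.4.6, pandas 2.3.3). Gene spans and starts came from RefSeq tables of GRCm38.p6. State 3 lay in 39.0% ± 1.10 of the bins that hold a start (17274 genes; SD, n = 9 strains), and in 0.884% and 0.931% of bins 10 kb to either side. A bin belongs to a span when it overlaps it. Of the 10 genes, 6 had a start in the table. The functions were tested on simulated data.

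The members, the 11 gene lists (183 genes, all found) and the grouping of states 1 to 3 were chosen with earlier results of these data known. Named genes were all 10 members, the highest, lowest and nearest-to-median gene of each list, genes whose spans overlap a member's, and the genes most alike over strains. Some genes that this rule names are not reported here. No test was made, because each strain has 1 segmentation and the readout chose the members. Alternatives are given in the closing section.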

Additional observations from a re-analysis of the deposited data

Results flagged for a closer look

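For each gene, the 9 strain values of the share of span bins in states 1 to 3 and in state 13 were checked for a strain whose distance to the next value exceeded 0.493 of the whole range. Of 15 sets with any spread, 7 had such a strain. Chance flags about 1 in 20 independent sets, but these genes were chosen with their states known and the sets are not independent, so the count is a description and not a test. For Cdh5 and Tek, 8 of 9 values were 0, which makes the distance the whole range. In 5 of the 7 the strain was PWK/PhJ. For Cldn5, states 1 to 3 held 39.3% in PWK/PhJ and 0% to 10.7% in the others. For Cdh5 the value was 3.40% in PWK/PhJ and 0% in the others, and for Tek 0.286% and 0%. For Lyve1 it was 63.4% in PWK/PhJ and 48.8% to 54.9% in the others. For Kdr, state 13 held 31.7% in PWK/PhJ and 56.3% to 70.6% in the others. In the other 2 sets, state 13 held 0.467% of the Stab2 span in NOD/ShiLtJ, beside 0% to 0.234% in the others, and 15.5% of the Vwf span in WSB/EiJ, beside 0.725% to 7.39%.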

How the results depend on the processing

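Of 81 recomputed summary values, 72 stayed near the value given, by the spread between strains or within 1.5 times for a count, and 9 moved. The count of genes with state 3 near the start in all strains was 0; counting any of states 1 to 3 gave 2, and leaving out each strain in turn gave 0 to 1, with 1 (Eng) without WSB/EiJ. The share of all genes with any of states 1 to 3 near the start is not given, so the 2 cannot be set against it. The count with state 3 in some strains was 5 to 8 with a strain left out, a check added after seeing the data. The count of genes with states 1 to 3 in the span in all strains was 6 and stayed 6 with each strain left out. It was 0 for state 3 alone, for which no share of all genes is given. The median share of states 1 to 3, 6.16%, became 8.003% with no padding, 22.6% with state 4 added and 0.377% for state 3 alone, and ran from 4.85% to 6.87% with a strain left out. The median share of state 13, 2.28%, became 3.15% with 5 kb of padding and ran from 1.59% to 2.52%. The median divergence, 25.8%, became 41.3% within 1 kb of both gene ends and ran from 21.7% to 27.4%. Of values of single genes, 15 of 150 moved for states 1 to 3, 0 of 140 for state 13 and 20 of 160 for divergence. No paired analysis was possible because each strain has 1 segmentation and no test was made. The depth is unknown, so a window with no state 3 bin does not show that the mark was absent there.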
